A study of Mus musculus with 4 samples.

Results

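The C/EBP transcription factors form a family of 5 genes in the libraries described here, *Cebpa*, *Cebpb*, *Cebpd*, *Cebpe* and *Cebpg*. They were taken by symbol from the 32285 genes of the deposited matrices, and all 5 were found with UMIs (unique molecular identifiers, each marking 1 captured transcript). The family was chosen by earlier results of these libraries, selected on the low *Cebpb* level of IL-22-positive T-cell-like and monocyte-like cells, so its values are given as a description. Liver leukocytes came from mice of the genotype IL-22sgBFP, in which blue fluorescent protein reports *Il22*, the gene of a cytokine that acts on epithelial cells. CD45-positive cells were sorted by this protein into BFP-negative and BFP-positive fractions, labelled IL-22-negative and IL-22-positive, from mice that had no injection (0 h) and from mice killed 12 h after MC38 cells, a mouse colon carcinoma line, had been injected into the spleen. Each of the 4 groups is 1 library of 3' single-cell RNA sequencing, all 4 carry the reporter allele, the number of mice behind a library is not given in the labels, and an injection free of cancer cells has no library. A ratio here therefore compares 2 libraries and has no replicate check, and the effects of surgery and of the cancer cells cannot be told apart.

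C/EBP proteins are basic leucine-zipper factors that bind DNA as dimers with each other and with related factors such as ATF4 and CHOP. In myeloid cells *Cebpa* drives the commitment of granulocyte and monocyte progenitors, *Cebpb* acts in inflammatory macrophages, in stress granulopoiesis and in the survival of patrolling monocytes, *Cebpd* is an early inflammatory responder, and *Cebpe* controls the late granule genes of neutrophils. *Cebpg* is broadly expressed, lacks a classical activation domain and mainly acts as a dimer partner.

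The genes lie at the following places in GRCm38, the build named mm10 in the submitters' processing notes. *Cebpb* (ENSMUSG00000056501) is a gene of 1 exon (chromosome 2, plus strand, 167688915 to 167690418). *Cebpa* (ENSMUSG00000034957, plus strand, 35119293 to 35121928) and *Cebpg* (ENSMUSG00000056216, minus strand, 35046422 to 35056573) are neighbours on chromosome 7. *Cebpd* (ENSMUSG00000071637, plus strand, 15887286 to 15891031) is on chromosome 16, and *Cebpe* (ENSMUSG00000052435, minus strand, 54710360 to 54712174) on chromosome 14. *Cebpa* and *Cebpd* have 1 exon as well, while *Cebpe* and *Cebpg* have 2. RefSeq promoters of GRCm38.p6 matched 3 of the 5 members. Below, the 250 bases before each start are shown for *Cebpb*, the member that differed most between the sorts, and for *Cebpa* and *Cebpg* for comparison. Capitals mark TGACG or its reverse CGTCA (the core bound by CREB and ATF factors), TTGCG or CGCAA, and ATTGC or GCAAT (each one side of a C/EBP-type site).

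*Cebpb*, chr2:167688665-167688914, plus strand: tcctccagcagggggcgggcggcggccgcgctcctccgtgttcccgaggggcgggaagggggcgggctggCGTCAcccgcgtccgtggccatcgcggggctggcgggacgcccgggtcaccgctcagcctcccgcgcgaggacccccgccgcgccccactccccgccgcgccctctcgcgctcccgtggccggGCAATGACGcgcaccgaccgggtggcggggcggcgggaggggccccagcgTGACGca
*Cebpa*, chr7:35119043-35119292, plus strand: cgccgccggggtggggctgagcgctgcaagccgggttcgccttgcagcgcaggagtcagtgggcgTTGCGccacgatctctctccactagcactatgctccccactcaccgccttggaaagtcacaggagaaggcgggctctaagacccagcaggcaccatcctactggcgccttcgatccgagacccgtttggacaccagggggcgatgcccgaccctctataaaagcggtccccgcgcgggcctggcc
*Cebpg*, chr7:35056567-35056816, minus strand: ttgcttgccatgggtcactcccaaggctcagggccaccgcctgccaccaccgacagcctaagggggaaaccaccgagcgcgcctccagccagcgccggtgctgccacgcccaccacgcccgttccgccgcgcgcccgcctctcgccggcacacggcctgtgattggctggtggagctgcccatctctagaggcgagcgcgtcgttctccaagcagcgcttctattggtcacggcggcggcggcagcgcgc

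The *Cebpb* window held 3 matches to TGACG on either strand, starting 180, 53 and 7 bases before the start, and 1 match to ATTGC that overlaps the second of them. The *Cebpa* window held 1 match to TTGCG and the *Cebpg* window none of the 3 motifs. Of 32851 promoter windows of this length, 17.8% held TGACG, 14.5% TTGCG and 23.1% ATTGC. Guanine and cytosine made up 81.6% of the *Cebpb* window, 66.4% of that of *Cebpa* and 70.8% of that of *Cebpg*. A match is a description of letters and not a measured site.

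The libraries held 8555 and 10231 barcodes (BFP-negative, 0 h and 12 h) and 300 and 1378 (BFP-positive), with totals of 1148221 to 29859062 UMIs. After filters and doublet removal 7928, 9492, 285 and 1345 cells were kept, with medians of 1794, 2153, 3352 and 3719 UMIs. Between 0 and 101 barcodes were shared by any 2 libraries. *Ptprc*, which encodes CD45, had a UMI in 61.6 to 83.6% of cells. *Il22* had 6 UMIs in 3 BFP-positive cells of 0 h and 0 UMIs in those of 12 h, against 16 and 1 in the BFP-negative libraries. As shares of cells with a UMI these were 1.05% and 0%, against 0.0883% and 0.0105%. Clusters were made without the 5 members and named from marker lists, and "-like" marks such a name. Monocyte-like cells made up 46.3% and 74.0% of the BFP-positive libraries against 1.77% and 5.74% of the BFP-negative ones. Unnamed clusters held 25.4%, 9.13%, 7.02% and 4.39% of cells, mostly clusters of low UMI counts. Levels are CPM, the UMIs of a gene per 1000000 UMIs, summed over the cells of a class in a library. Intervals are exact 95% Poisson, Clopper-Pearson or conditional intervals and cover counting error only.

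*Cebpb* was found in every named cell class of the BFP-negative libraries, and at 12 h it was highest in macrophage-like and monocyte-like cells. Levels there were 2267 CPM (2066 to 2483) in 47 macrophage-like and 2069 CPM (2015 to 2124) in 545 monocyte-like cells, whose intervals overlap. Neutrophil-like cells held 1254 CPM (1051 to 1485) and basophil- or mast-cell-like cells 956 CPM (748 to 1204), again with overlapping intervals. Below these came NK- or ILC1-like cells at 247 CPM (231 to 264), and then conventional-dendritic-cell-like cells (204 CPM, 186 to 223) and T-cell-like cells (196 CPM, 187 to 206), which could not be ordered. B-cell-like cells held 144 CPM, cycling cells 106 CPM, plasmacytoid-dendritic-cell-like cells 75.9 CPM and plasma-cell-like cells 55.2 CPM. In this library the monocyte-like, macrophage-like and granulocyte-like classes thus stood well above the lymphocyte and dendritic classes. Macrophage-like cells of 0 h did not, at 173 CPM (2 UMIs in 5 BFP-negative cells) and 26.2 CPM (46 BFP-positive cells). Of the 47 macrophage-like cells of 12 h, 40 were placed with the monocyte-like cells under a minimum of 500 genes per cell. Of B-cell-like cells, 18.7% at 0 h and 21.5% at 12 h held a *Cebpb* UMI, at median depths of 1715 and 1599 UMIs. The matching shares of monocyte-like cells were 95.7% and 96.3%, at 4428 and 4991 UMIs.

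*Lyz2*, the lysozyme gene and an abundant monocyte marker, was counted in the same sums. For every 100 *Lyz2* UMIs, BFP-negative monocyte-like cells held 6.60 *Cebpb* UMIs at 0 h and 11.4 at 12 h, B-cell-like cells 181 at both times, and T-cell-like cells 262 and 350.1. In the BFP-positive libraries monocyte-like cells held 1.45 and 5.53. Lymphocytes there had 1 to 9 *Lyz2* UMIs in a sum, beside 2 and 0 *Cebpb* UMIs in B-cell-like and 0 and 1 in T-cell-like cells. The part of free RNA in the lymphocyte levels was not tested.

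*Cebpd* was found across the myeloid classes, with the highest levels in neutrophil-like cells, and was low in lymphocytes. In neutrophil-like cells it stood at 547 CPM (BFP-negative, 0 h, 10 cells), 552 CPM (BFP-negative, 12 h, 50 cells) and 679 CPM (BFP-positive, 12 h, 22 cells), with intervals that overlap. Monocyte-like cells held 217 and 297 CPM in the BFP-negative and 155 and 144 CPM in the BFP-positive libraries, 0 h first. Conventional-dendritic-cell-like cells of the BFP-negative libraries held 144 and 177 CPM, and plasmacytoid-dendritic-cell-like cells 78.3 and 96.5 CPM. Macrophage-like cells held 132 CPM (BFP-negative, 12 h) and 110 and 95.1 CPM (BFP-positive), and basophil- or mast-cell-like cells 101 and 133 CPM, from 9 and 10 UMIs. NK- or ILC1-like cells held 11.7 and 9.10 CPM. The gene was thus found in both dendritic classes, where *Cebpe* had at most 1 UMI per library. B-cell-like cells, where *Cebpd* serves as a background, held 0.258 and 3.10 CPM, or a UMI in 0.0485% and 0.580% of cells, against 52.9% and 59.1% of monocyte-like cells.

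*Cebpa* was found in macrophage-like, monocyte-like and basophil- or mast-cell-like cells, with less in dendritic-cell-like ones. Macrophage-like cells held 99.5 and 99.4 CPM in the BFP-positive libraries of 0 h and 12 h (46 and 145 cells) and 53.6 CPM (26.8 to 96.0) in the BFP-negative library of 12 h. In monocyte-like cells the 4 values were 35.9, 18.2, 58.5 and 39.4 CPM for BFP-negative 0 h and 12 h and BFP-positive 0 h and 12 h. Conventional-dendritic-cell-like cells of the BFP-negative libraries held 24.3 and 16.1 CPM and plasmacytoid ones 14.3 and 11.4 CPM. The lymphoid clusters there held 6 UMIs at each time, which is 0.401 and 0.304 CPM. In 39 basophil- or mast-cell-like cells of 0 h it was 90.2 CPM from 8 UMIs, and 0 UMIs were found in 25 such cells of 12 h, where 3 UMIs would be 39.8 CPM.

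*Cebpe*, the neutrophil granule factor, had 116 UMIs in all kept cells, the fewest of the family. It stood at 337 CPM (8 UMIs, 145 to 663) in the 10 neutrophil-like cells of 0 h, and at 93.6 CPM (10 UMIs) and 113 CPM (4 UMIs) in those of the BFP-negative and BFP-positive libraries of 12 h. Most of these UMIs came from few cells, since 3, 4 and 2 neutrophil-like cells held them. Monocyte-like cells held 11.4, 14.1, 5.48 and 8.23 CPM, from 7, 38, 3 and 33 UMIs, in the same order of libraries as above. The lymphoid clusters held 0 and 1 UMI in 7258 and 7944 BFP-negative cells.

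*Cebpg*, the broad dimer partner, lay between 40.8 and 155 CPM in every named BFP-negative class of at least 50 cells. It stood at 155 and 96.2 CPM in BFP-negative and 111 and 73.8 CPM in BFP-positive monocyte-like cells, and at 139 and 91.7 CPM in BFP-negative conventional-dendritic-cell-like cells, 0 h first. T-cell-like (41.1 and 40.8 CPM), NK- or ILC1-like (54.0 and 56.0 CPM) and B-cell-like cells (47.2 and 45.9 CPM) all held it. The lymphoid clusters of the BFP-positive libraries held 52.1 CPM (14 UMIs) at 0 h and 24.8 CPM (4 UMIs) at 12 h, against 45.0 and 46.0 CPM in the BFP-negative ones.

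**Figure D1:**
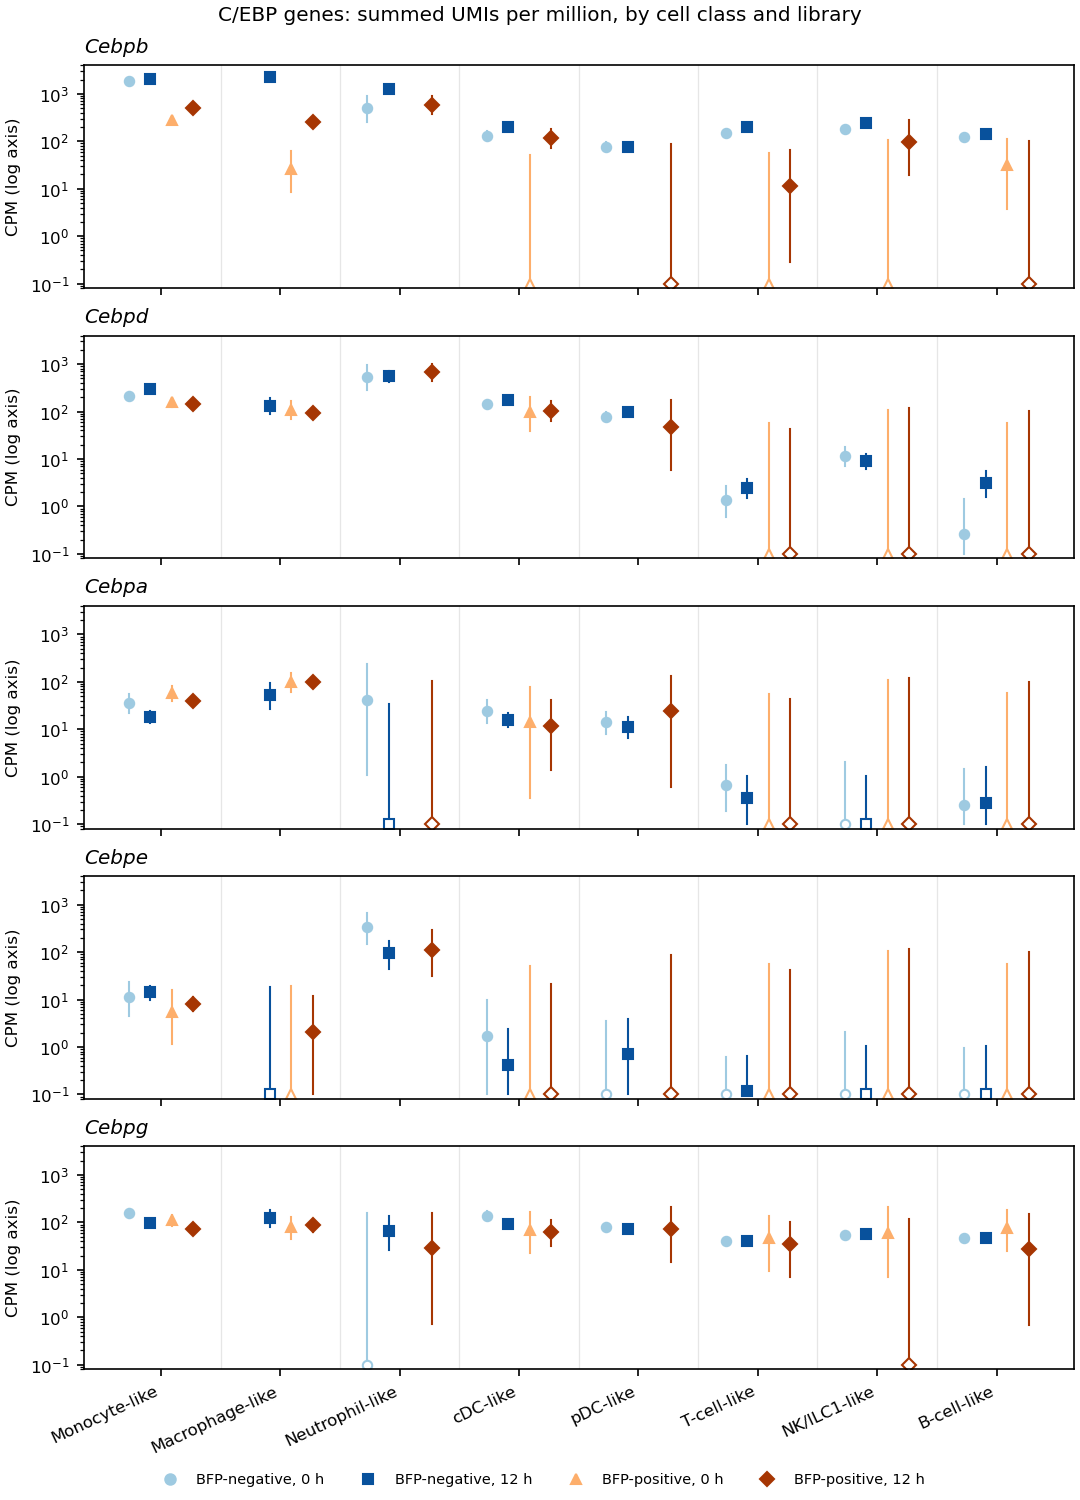
Levels of the 5 C/EBP genes (CPM, log axis) by cell class and library, with exact 95% Poisson intervals. Open symbols at the foot of a panel are sums of 0 UMIs and classes with fewer than 10 cells in a library are left out. *Cebpb* of the BFP-positive libraries (orange and brown) lies below the BFP-negative libraries (blue) in monocyte-like and macrophage-like cells, while *Cebpg* lies between 73.8 and 155 CPM in all 4 libraries of monocyte-like cells.

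Against this background, *Cebpb* was low in the BFP-positive libraries at both times. In monocyte-like cells of 0 h it stood at 1888 CPM (1780 to 2000, 1156 UMIs in 140 cells) in the BFP-negative and 283 CPM (240.4 to 332, 155 UMIs in 132 cells) in the BFP-positive library. At 12 h the values were 2069 CPM (5572 UMIs in 545 cells) and 508 CPM (486 to 531, 2038 UMIs in 995 cells). Both BFP-positive values lie far below both BFP-negative ones. The ratios of BFP-positive to BFP-negative were 0.150 (0.126 to 0.178) at 0 h and 0.246 (0.233 to 0.258) at 12 h. The depth of these cells differed less, with medians of 3931.5 and 4058 UMIs in the BFP-positive and 4428 and 4991 in the BFP-negative libraries.

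The difference was seen along the whole distribution of cells. The median monocyte-like cell held 8 and 9 *Cebpb* UMIs in the BFP-negative and 1 and 2 in the BFP-positive libraries of 0 h and 12 h. The 90th percentile was 16 and 20 UMIs against 3 and 4, and the richest cell held 38 and 38 against 12 and 12. With each cell thinned to 1000 UMIs, 78.6% and 80.8% of BFP-negative and 29.2% and 39.6% of BFP-positive monocyte-like cells held a *Cebpb* UMI, leaving out 0, 20, 2 and 40 shallower cells (BFP-negative first). Without thinning the shares were 95.7%, 96.3%, 53.0% and 79.4%.

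**Figure D2:**
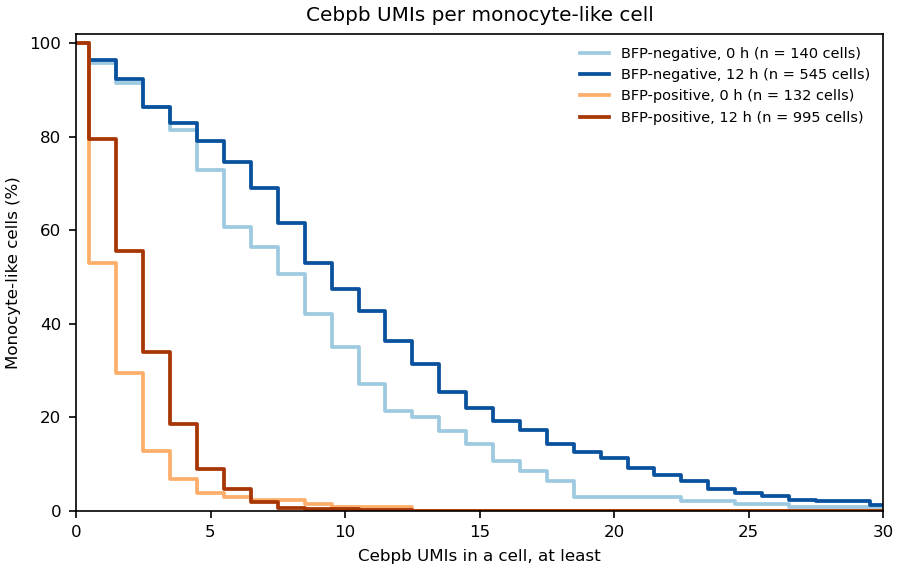
Share of monocyte-like cells (y axis, percent) that hold at least the number of *Cebpb* UMIs on the x axis, 1 line per library. The BFP-negative lines of 0 h and 12 h have medians of 8 and 9 UMIs, and the BFP-positive lines medians of 1 and 2.

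A low *Cebpb* was present in each monocyte-like cluster. Cluster 6, led by *Ear2*, *Lst1* and *Lyz2*, held 92.1%, 54.9%, 93.9% and 66.2% of the monocyte-like cells (BFP-negative 0 h and 12 h, BFP-positive 0 h and 12 h). Its *Cebpb* ratios were 0.138 (0.114 to 0.165) at 0 h and 0.260 (0.243 to 0.277) at 12 h. Cluster 11, led by *Lcn2*, *Saa3* and *Chil3*, was found at 12 h alone, where *Cebpb* stood at 2040 CPM in 180 BFP-negative and 413 CPM in 161 BFP-positive cells, a ratio of 0.202 (0.180 to 0.227). Cluster 14, led by interferon-response genes such as *Rsad2*, had ratios of 0.315 (0.188 to 0.509, 11 and 8 cells) at 0 h and 0.252 (0.220 to 0.288) at 12 h.

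The lymphocytes of the BFP-positive libraries were low in *Cebpb* too. In all lymphoid clusters together, a pool defined after the values of single classes were seen, 7258 BFP-negative cells of 0 h held 130 CPM and 85 BFP-positive cells 2 UMIs, or 7.45 CPM (0.902 to 26.9). At 12 h 7944 cells held 176 CPM and 78 cells 4 UMIs, or 24.8 CPM (6.75 to 63.4). The ratios were 0.0575 (0.00696 to 0.208) and 0.140 (0.0382 to 0.360), the first 0.0292 (0.000738 to 0.163) without the richest cell of each library. At the BFP-negative rate of each named class or unnamed cluster, 33.5 and 31.2 *Cebpb* UMIs would have been expected in those BFP-positive cells. There 2 and 4 were counted. Clusters within a named class were not matched. For *Cebpg* the same reckoning expected 12.7 and 7.31 UMIs and 14 and 4 were counted. T-cell-like cells, on whose low *Cebpb* the family was picked, are part of this pool. The reckoning thus repeats a selected value and is no separate support. The 12 monocyte markers summed to 836 and 792 CPM in the BFP-negative lymphoid clusters, with all 12 detected. In the BFP-positive ones they summed to 640 and 910 CPM, with 5 and 7 detected. *Lyz2* stood at 66.9, 60.0, 11.2 and 68.1 CPM in the same order. The marker list holds *Ly6c2*, a leading gene of the lymphoid cluster 20, so its sum does not measure monocyte RNA alone. In BFP-negative cells of 0 h it was 1122 CPM in T-cell-like and 358 CPM in B-cell-like cells, with *Lyz2* at 56.6 and 66.9 CPM. The part of monocyte RNA in the lymphoid result was not tested.

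Single classes of the BFP-positive libraries held few cells. T-cell-like cells of 0 h had 0 *Cebpb* UMIs in 23 BFP-positive cells, against 148 CPM in 2282 BFP-negative cells. With 3 UMIs as the floor, or 45.9 CPM, the ratio was 0.310, and its interval reached 0.382. At 12 h they had 1 UMI in 35 cells, 11.5 CPM, against 196 CPM in 3338 cells, a ratio of 0.0587 (0.00149 to 0.327). Without that 1 cell and the richest BFP-negative one it was 0.182, with the floor of 3 UMIs. B-cell-like cells of 0 h had 2 UMIs in 30 cells, a ratio of 0.258 (0.0311 to 0.936). These counts of 0 to 2 UMIs set wide limits, and all 3 values lie on the low side. NK- or ILC1-like cells had 0 UMIs in 13 cells at 0 h and 3 UMIs in 17 cells at 12 h, with a ratio of 0.387 (0.0796 to 1.13) at 12 h.

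In macrophage-like cells *Cebpb* was 26.2 CPM (5 UMIs in 46 cells) in the BFP-positive library of 0 h, where the BFP-negative library held only 5 such cells. At 12 h it was 256 CPM (121 UMIs in 145 cells) against 2267 CPM (465 UMIs in 47 cells), a ratio of 0.113 (0.0916 to 0.138). Of these cells, 40 of the 47 and 83 of the 145 were placed with the monocyte-like cells when at least 500 genes per cell were asked for. The ratio over the 5 and 55 macrophage-like cells left was then 0.0620, with too few UMIs expected to be measured. Neutrophil-like cells of 12 h held 594 CPM (21 UMIs in 22 cells) against 1254 CPM (134 UMIs in 50 cells), a ratio of 0.474 (0.284 to 0.754), or 0.556 with scaling by the median ratio over genes. Cluster 24, an unnamed cluster led by *Arg1* and *Ccl24* and found at 12 h alone, held 727 CPM in 35 cells against 1721 CPM in 24 cells, a ratio of 0.423 (0.316 to 0.559).

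Conventional-dendritic-cell-like cells differed less. At 12 h they held 116 CPM (70.7 to 179, 20 UMIs in 38 cells) in the BFP-positive and 204 CPM in the BFP-negative library, a ratio of 0.568 (0.344 to 0.886). It was 0.455 without the richest cell of each library and 0.329 with at least 500 genes per cell. At 0 h 11 BFP-positive cells held 0 UMIs, so the ratio was at most 0.324. Cluster 18, an unnamed cluster, held 6 UMIs in 21 BFP-positive and 36 in 77 BFP-negative cells of 12 h, too few to be measured, with a ratio of 0.847 (0.292 to 2.03). A *Cebpb* level of 0.25 times or less in every class was therefore not seen: the ratios of monocyte-like cells and of the lymphoid pool lay below that value at both times, with intervals up to 0.258 and 0.360 at 12 h, and those of clusters 6 and 14 of 12 h were 0.260 and 0.252. It was not seen in the dendritic-cell-like or neutrophil-like cells of 12 h or the B-cell-like cells of 0 h.

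The 5 members could be set against all genes with at least 10 UMIs expected in each sum at the pooled rate of both sums, here called measured. A gene is called where it differs at least 2-fold. At 0 h 1 of the 4 measured members, *Cebpb*, was called lower in monocyte-like cells, where 4.11% of 4985 measured genes were. In the lymphoid pool *Cebpb* was called lower and *Cebpg* was not, where 13% of 3303 genes were called lower. At 12 h *Cebpb* and *Cebpd* were called lower and *Cebpa* higher among 5 measured members in monocyte-like cells, where 6.46% of 8502 genes were lower and 2.82% higher. *Cebpb* was the 1 measured member in the lymphoid pool of 12 h, where 19.7% of 1998 genes were lower, and in T-cell-like cells, where 17.0% were. In macrophage-like cells of 12 h 1 of 4 measured members was lower, again *Cebpb*, against 6.73% of 2554 genes. The rule that picked the family used these contrasts, so nothing is read from these counts.

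**Figure D3:**
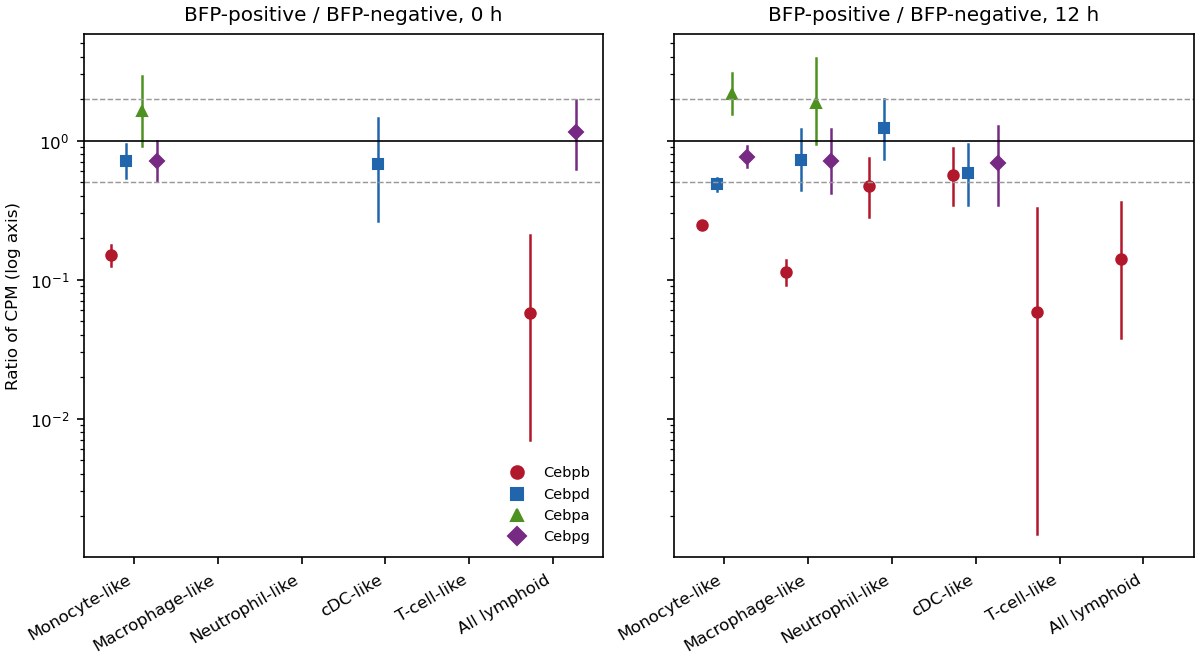
Ratio of CPM of BFP-positive to BFP-negative cells (log axis) for *Cebpb*, *Cebpd*, *Cebpa* and *Cebpg* at 0 h (left) and 12 h (right), by class, where the gene was measured, with exact 95% intervals. The solid line is no difference and the dashed lines are 2-fold, and *Cebpb* lies below 0.25 in monocyte-like cells and in the lymphoid pool at both times.

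The genes with a ratio of 0.25 or less in both monocyte-like cells and the lymphoid pool are named next. *Cebpb* was picked for this pattern and the pair of classes was set after their values were seen, so nothing is read from the counts. At 0 h 3 of 2753 genes measured in both (0.109%) stood at 0.25 or less in both, namely *Pdcd7*, *Smim19* and *Cebpb*. At 12 h 9 of 1763 genes (0.51%) did, namely *Jchain*, *Mzb1*, *Pde7a*, *Tubb4b*, *Tagln2*, *Rbm3*, *Cd81*, *Rnh1* and *Cebpb*. *Jchain* and *Mzb1* are plasma cell genes, and plasma-cell-like cells numbered 141 in the BFP-negative library of 12 h and 0 in the BFP-positive one. In cluster 6 alone, the largest monocyte-like cluster, *Cebpb* of 12 h stood at 0.260 and would not be on the second list. The *Cebpb* transcript has 1504 bases, 67.2% guanine and cytosine, and 35.7% in the last 300 bases, where a 3' library reads. The genes measured in both at 0 h had medians of 2957 bases, 48.6% and 42.0%.

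The other members differed less between the sorts. In monocyte-like cells of 0 h the ratio of BFP-positive to BFP-negative was 0.715 (0.538 to 0.946) for *Cebpd* and 1.63 (0.917 to 2.94) for *Cebpa*. *Cebpg* stood at 0.719 (0.512 to 1.00), and *Cebpe*, from 3 and 7 UMIs, was not measured. At 12 h *Cebpd* stood at 0.486 (0.436 to 0.541), close to the 2-fold limit and between 0.504 and 0.507 with doublet calls kept, at least 500 genes or resolution 2. *Cebpa* stood at 2.16 (1.56 to 3.05), *Cebpe* at 0.583 (0.354 to 0.955; 0.476 at resolution 2) and *Cebpg* at 0.767 (0.647 to 0.910). In cluster 6 alone the 12 h ratios of *Cebpd* and *Cebpa* were 0.482 and 2.77, and that of *Cebpe* was 1.07 (0.495 to 2.47). In cluster 11 all 5 members were measured, and neither *Cebpd* nor *Cebpa* was called. In cluster 14 *Cebpd* was not called, at 94.4 CPM in BFP-positive against 180 CPM in BFP-negative cells. *Cebpa* was not measured there, at 26.2 against 22.1 CPM. The lower *Cebpd* did not extend to neutrophil-like cells of 12 h, where its ratio was 1.23 (0.731 to 2.01), and in macrophage-like cells of 12 h it was 0.723 (0.439 to 1.21). In conventional-dendritic-cell-like cells of 12 h it was 0.587 (0.345 to 0.940), 0.412 with at least 500 genes per cell and 0.482 without the richest cell of each library.

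Fewer monocyte-like cells of the BFP-positive libraries held any member at all. No member had a UMI in 2.14% and 2.57% of BFP-negative monocyte-like cells of 0 h and 12 h, and in 16.7% and 9.15% of those sorted as positive. At least 3 members were found together in 54 of 140, 168 of 545, 20 of 132 and 141 of 995 cells. *Cebpb*, for which the family was picked, was found in 134, 525, 70 and 790 of the 140, 545, 132 and 995 cells. Both counts include it, so they are no separate result about the family. In the BFP-negative libraries *Cebpd* was found in 54.5% and 60.8% of cells with a *Cebpb* UMI and in 16.7% and 15% of the few cells without one. In the BFP-positive libraries the shares were 32.9% and 36.6% with, and 41.9% and 36.1% without. Depth differs between cells with and without a UMI, so these shares describe the libraries only.

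Over the 12 h, *Cebpb* differed little in monocyte-like cells sorted as BFP-negative, and the other measured members differed by less than 2-fold. *Cebpb* went from 1888 to 2069 CPM, a ratio of 12 h to 0 h of 1.10 (1.03 to 1.17), and *Cebpd* from 217 to 297 CPM, 1.37 (1.14 to 1.66). *Cebpa* went from 35.9 to 18.2 CPM, 0.507 (0.301 to 0.880), and *Cebpg* from 155 to 96.2 CPM, 0.620 (0.488 to 0.793). The inflammatory members lay on the higher side and the progenitor factor and the dimer partner on the lower side. None of the 4 measured members was called, where 6.36% of 5204 genes were called in either direction. In cluster 6 alone *Cebpa* was at 0.434 (0.231 to 0.817) and would be called.

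In the other classes of the BFP-negative libraries, *Cebpb* was mostly somewhat higher at 12 h. In T-cell-like cells it went from 148 to 196 CPM (1.32, 1.22 to 1.44), in NK- or ILC1-like cells from 183 to 247 CPM (1.35, 1.19 to 1.54) and in B-cell-like cells from 121 to 144 CPM (1.19, 1.05 to 1.36). In conventional-dendritic-cell-like cells it went from 129 to 204 CPM (1.59, 1.24 to 2.05), and in plasmacytoid-dendritic-cell-like cells from 77.3 to 75.9 CPM (0.982, 0.729 to 1.33). The intervals of these 2 classes overlap. In plasma-cell-like cells the ratio was 1.68 (1.11 to 2.60). In cycling cells, a mixed class led by *Birc5* and *Mki67*, *Cebpb* went from 49.4 to 106 CPM (2.15, 1.39 to 3.46). There 1 cell held 18 of the 120 UMIs of 12 h, and without the richest cell of each library the ratio was 1.96 (1.24 to 3.22) and not called. That was the 1 member called in these 7 classes, in which 2 to 4 members were measured. All genes were called at 3.04% in T-cell-like, 2.36% in NK- or ILC1-like, 3.1% in B-cell-like, 7.72% in plasma-cell-like, 4.65% in cycling, 4.08% in conventional-dendritic-cell-like and 3.29% in plasmacytoid-dendritic-cell-like cells. In all lymphoid clusters together *Cebpb* stood at 1.36 (1.29 to 1.44) and 0 of 3 measured members were called, where 4.48% of 11936 genes were. *Cebpg* was near 1 in lymphocytes, at 0.993 (0.841 to 1.17) in T-cell-like and 0.972 (0.782 to 1.21) in B-cell-like cells.

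Basophil- or mast-cell-like cells, below the minimum of 50 cells, are given as values only. *Cebpb* stood there at 304 CPM (201 to 443, 27 UMIs in 39 cells) at 0 h and at 956 CPM (748 to 1204, 72 UMIs in 25 cells) at 12 h. Over all kept BFP-negative cells *Cebpb* (2.07), *Cebpd* (2.71) and *Cebpe* (2.27) were called higher at 12 h, 3 of 5 measured members, where 3.71% of 12559 genes were. Monocyte-like cells made up 1.77% and 5.74% of these libraries, a share that moves with that result. Between the sorts, over all kept cells, 1 of 3 measured members was higher at 0 h, *Cebpd* (4.83), where 8.65% of 7540 genes were. At 12 h 3 of 5 were, *Cebpa* (9.31), *Cebpd* (2.34) and *Cebpe* (3.92), where 14.1% of 10612 genes were.

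In the BFP-positive libraries *Cebpb* of monocyte-like cells was nearer to the BFP-negative level at 12 h than at 0 h. It went from 283 to 508 CPM, a ratio of 1.79 (1.52 to 2.13), while *Cebpd* went from 155 to 144 CPM (0.929, 0.739 to 1.18), *Cebpa* from 58.5 to 39.4 CPM (0.674, 0.458 to 1.02) and *Cebpg* from 111 to 73.8 CPM (0.662, 0.501 to 0.887). None of the 4 measured members was called, where 9.09% of 4785 genes were in either direction. In cluster 6 alone *Cebpb* was at 2.13 (1.78 to 2.56) and would be called. In cluster 14, with 8 cells at 0 h and 175 at 12 h, it was at 0.877 (0.570 to 1.42). In macrophage-like cells *Cebpb* went from 26.2 to 256 CPM (9.77, 4.07 to 30.6), 1 of 4 measured members and the 1 called, where 7.07% of 2460 genes were higher. That call ended with a minimum of 500 genes per cell, which left 35 and 55 macrophage-like cells and a ratio of 1.71 (0.532 to 6.37), and the ratio was 15.1 without the richest cell of each library.

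Partners and regulators of C/EBP proteins, a list of 15 genes, were called at 2-fold in no larger a share than all genes in monocyte-like cells. Of 12 measured, 0 were called from 0 h to 12 h in the BFP-negative libraries, where 6.36% of all genes were, with a median log2 ratio of -0.03 against 0.01 over all genes. Between the times of the BFP-positive libraries 1 was called, where 9.09% of all genes were: *Klf4*, a monocyte differentiation factor, which went from 395 to 183 CPM (0.464, 0.398 to 0.542), and the median was -0.04 against -0.04. Between the sorts 1 of 12 was higher at 0 h, *Trib1*, a pseudokinase that targets C/EBP alpha for degradation, at 201 against 93.1 CPM (2.16, 1.55 to 3.03). At 12 h 1 of 12 was higher, *Ddit3*, which encodes CHOP, at 31.7 against 14.9 CPM (2.13, 1.48 to 3.12). The medians between the sorts were 0.15 at 0 h and 0.24 at 12 h, against -0.01 and 0.00. At 0 h 11.6% of all measured genes were called in either direction between the sorts and at 12 h 9.28%. *Atf3*, a stress-response gene and C/EBP dimer partner, stood at 1703 and 1283 CPM in the BFP-negative and BFP-positive monocyte-like cells of 0 h.

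Myeloid genes known as C/EBP targets, a list of 28, were higher at 12 h in monocyte-like cells of both sorts. In the BFP-negative libraries 10 of 21 measured were called higher and 0 lower, and the median log2 ratio was 0.98 against 0.01 over 5204 genes, of which 4.38% were higher. *S100a8*, a calprotectin subunit, went from 11.4 to 3053 CPM (267-fold, 130 to 665), *Saa3*, an acute-phase apolipoprotein, from 11.4 to 1344 CPM (118-fold) and *Lcn2*, the siderophore-binding lipocalin, from 11.4 to 934 CPM (81.7-fold). *S100a9*, the partner of *S100a8*, and *Arg1*, an arginase, had 0 UMIs at 0 h. With 3 UMIs over the class as the floor in place of 0, they were 39.6-fold and 13.9-fold higher. *S100a8*, *Saa3* and *Lcn2* had 7 UMIs each at 0 h and *Ptgs2*, also called, had 4. The minimum of 10 expected UMIs was set at the pooled rate, for all genes and in both sorts. Such genes were therefore measured through their 12 h UMIs, and the counts of calls are descriptions.

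In the BFP-positive libraries, where *Cebpb* was low, 10 of 21 measured targets were also called higher and 1 lower, with a median of 0.99 against -0.04 over 4785 genes, of which 4.66% were higher. *Saa3* went from 16.4 to 1746 CPM (106-fold, 55.9 to 232) and *Lcn2* from 11.0 to 672 CPM (61.3-fold). *S100a8* went from 3.65 CPM (2 UMIs) to 2269 CPM, a ratio of 621 (172 to 5128). With the same floor of 3 UMIs, *S100a9* and *Arg1* were 25.7-fold and 12.4-fold higher. *Lyz2* was the 1 called lower, from 19595 to 9189 CPM (0.469, 0.459 to 0.479). Cluster 11, which exists at 12 h alone, moves with these values, and cluster 6 alone gave fewer calls. There 8 of 20 measured targets were higher in the BFP-negative libraries, where 4.16% of 4923 genes were. In the BFP-positive libraries 6 of 20 were higher, where 4.12% of 4680 genes were, and *Lyz2* was lower, where 4.34% were. The sums of neutrophil and of hepatocyte markers were also higher at 12 h in monocyte-like cells, the neutrophil sum through genes that are on the target list themselves. The 12 neutrophil markers summed to 75.1 and 3470 CPM in the BFP-negative and 117 and 2602 CPM in the BFP-positive libraries, 0 h first. Of these, 7 are also on the target list, *S100a8* foremost, and the 5 that are not summed to 0, 7.80, 21.9 and 9.97 CPM in the same order. The neutrophil genes *Ltf*, *Camp*, *Ngp*, *Ly6g*, *Retnlg* and *Mmp9* had 0 to 2 UMIs in each of these sums. *Mmp8* went from 32.7 to 170 CPM in the BFP-negative and from 27.4 to 132 CPM in the BFP-positive libraries. *Csf3r* went from 31.0 to 43.8 and from 64.0 to 49.9 CPM. *Cxcr2* went from 0 to 6 and from 0 to 13 UMIs, and *G0s2* from 0 to 13 and from 11 to 24 UMIs. The part of neutrophil RNA in these sums was not tested. The 8 hepatocyte markers summed to 24.5 and 37.5 CPM and to 20.1 and 49.9 CPM, with *Apoc1* at 2.83 (1.40 to 6.67) in the BFP-positive libraries.

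Target genes were also higher at 12 h in B-cell-like and T-cell-like cells, at far lower levels. *S100a8* was 129445 CPM in the 10 and 111768 CPM in the 50 neutrophil-like cells of the BFP-negative libraries. In B-cell-like cells, a background class, it went from 1.55 to 10.1 CPM. *Saa3* had 0 and 1 UMI in the same neutrophil-like cells, and went from 0.516 to 5.91 CPM in B-cell-like cells. Of the list, 4 of 11 measured genes were called higher in B-cell-like and 8 of 13 in T-cell-like cells of the BFP-negative libraries, where 0.746% of 9248 and 1.16% of 10087 genes were. In NK- or ILC1-like cells 1 of 7 was, where 0.679% of 8103 genes were, and the median log2 ratio was -0.07. In plasma-cell-like cells 0 of 2 and in cycling cells 1 of 3 were, where 4.42% of 4391 and 1.96% of 4540 genes were. The part of free RNA in the list's counts was not tested.

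**Figure D4:**
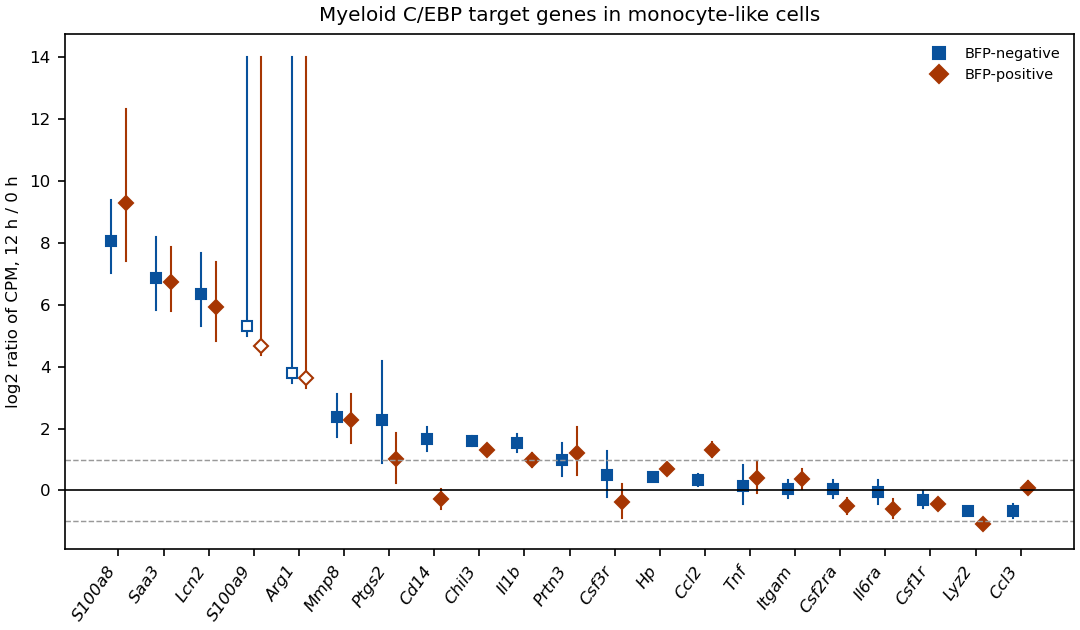
log2 ratio of CPM of 12 h to 0 h in monocyte-like cells for the measured myeloid C/EBP target genes, BFP-negative (blue squares) and BFP-positive (brown diamonds), with exact 95% intervals. Open symbols are lower bounds against a sum of 0 UMIs, the dashed lines are 2-fold, and *S100a8*, *Saa3*, *Lcn2*, *S100a9* and *Arg1* are the 5 highest in both sorts.

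Between the sorts the share of target genes called at 2-fold was no larger than that of all genes. At 0 h 1 of 15 measured targets was higher in the BFP-positive monocyte-like cells, *Csf3r*, the granulocyte colony-stimulating factor receptor, at 64.0 against 31.0 CPM (2.06, 1.15 to 3.81), and 0 were lower, where 11.6% of all measured genes were called in either direction. At 12 h 1 of 22 was higher, *Il6*, from 23 against 6 UMIs (2.57, 1.02 to 7.73), and 1 lower, *Cd14*, the lipopolysaccharide co-receptor, at 142 against 313 CPM (0.454, 0.407 to 0.505), where 9.28% of all were. With a fold of 1.5 in place of 2, 9 and 10 targets were called, but the share of all genes at that fold was not counted. The median log2 ratios were 0.01 and 0.02, against -0.01 and 0.00 over all genes. The time and sort comparisons share libraries, and their values are given side by side only.

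Genes with the level pattern most like each member were sought over 26 sums of a class in a library with at least 30 cells, by Pearson correlation of log2(CPM + 10) among 6847 genes. The sums share libraries and depth, so the coefficients are descriptions. Most like *Cebpb* were *Apobr* (0.84), *Eno1* (0.82), *Ltb4r1* (0.81), *Xdh* (0.80) and *Hp* (0.79), of which 2 stayed among the first 5 with a pseudocount of 1 CPM. *Cebpd* was matched more closely, by *Alox5ap* (0.97), *Nfam1* (0.96), *Arl11* (0.95), *Litaf* (0.93) and *Atp6v1g1* (0.91). Most like *Cebpg* were *Anxa5* (0.89), *Pnp* (0.87), *Cuedc2* (0.84), *Rab29* (0.83) and *Diaph2* (0.82). Within the family *Cebpb* stood at 0.65 with *Cebpd* and 0.54 with *Cebpg*, and *Cebpd* with *Cebpg* at 0.76. *Cebpa* and *Cebpe* had under 500 UMIs in all and were left out.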

How the data were processed

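Liver CD45-positive cells of 4 sorted fractions were measured by 10x Single Cell 3' v2, per the labels' protocols. The deposited matrices hold UMI counts as whole numbers. The pipeline was Cell Ranger, version 4.0.0 per the file headers and 3.0.1, with mm10, per the submitters' processing notes. Whether the authors removed cells is not given in the sources used here.

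Barcodes under 200 genes or with 10% or more mitochondrial UMIs were dropped (254, 132, 11 and 28), and Scrublet calls were removed (373, 607, 4 and 5). In the BFP-negative library of 12 h the automatic threshold called 1 barcode, so that of 0 h was used, a choice made after this was seen. Cells of all libraries were clustered with scanpy 1.11.5 and leidenalg 0.10.2 on log counts per 10000 of 2000 variable genes without antigen receptor segments, *Il22* and the 5 members (30 components, 15 neighbours, resolution 1). The 28 clusters were named from 20 marker lists by script. UMIs were summed per class and library, and a sum of 0 was set to 3 UMIs for ratios. A gene was measured with at least 10 UMIs expected in each sum at the pooled rate of both sums, and called at 2-fold. Classes needed 50 cells in both BFP-negative libraries, and 30 in other comparisons. With 1 library per group no test was run. The code was tested on simulated data.

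The members, lists and classes were chosen with earlier results of these data known. Named were the members, at most 5 higher and 5 lower list genes per comparison, the 5 genes most like each member with 500 UMIs, and genes at most 0.25 in every class, a condition then applied to 2 pooled classes. Classes under the cell minimum, cluster values, the neutrophil markers set apart and the background levels of *S100a8* and *Saa3* were added after values were seen. Alternatives were doublets kept, at least 500 genes, resolutions 0.5 and 2, median-ratio scaling, the richest cell left out, 50 expected UMIs, a fold of 1.5, a pseudocount of 1 CPM, thinning to 1000 UMIs and the largest monocyte-like cluster alone.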

Additional observations from a re-analysis of the deposited data

Results flagged for a closer look

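*Cebpb* summed over all kept cells lay on opposite sides of 1 at the 2 times: the ratio of BFP-positive to BFP-negative was 0.765 (0.650 to 0.896) at 0 h and 1.15 (1.10 to 1.21) at 12 h. The difference between the times was not tested, as each group is 1 library. Within monocyte-like cells the ratios were 0.150 and 0.246, and within the lymphoid clusters 0.0575 and 0.140, so all 4 lay on the low side. Monocyte-like cells, the class richest in UMIs of the gene, made up 46.3% and 74.0% of the BFP-positive against 1.77% and 5.74% of the BFP-negative cells. In the deposited matrices without any filter, *Cebpb* stood at 189 and 145 CPM at 0 h and at 393 and 453 CPM at 12 h, BFP-negative first.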

How the results depend on the processing

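Of the main *Cebpb* ratios and counts of called members, 93 values under alternatives stayed within the counting interval, or within 1.5 times for counts, and 5 did not. Of the other values 375 stayed and 22 moved, and no called ratio changed direction. The alternative with a higher minimum of expected UMIs leaves a ratio as it is, so a ratio under it could only stay. The 93 and 375 values that stayed can include such ratios, so these tallies do not measure how stable the ratios are. With at least 500 genes per cell, *Cebpb* in macrophage-like cells stood at 1.71 between the times of the BFP-positive libraries and at 0.0620 between the sorts of 12 h, both then with too few UMIs expected, since this class shrank to 35, 55 and 5 cells. In conventional-dendritic-cell-like cells of 12 h it stood at 0.329 between the sorts. With scaling by the median ratio over genes, *Cebpb* of the BFP-negative lymphoid clusters stood at 1.55 between the times, and in the largest monocyte-like cluster alone, an alternative added after seeing the data, at 0.260 between the sorts of 12 h. With a fold of 1.5, 9 and 10 target genes were called between the sorts of monocyte-like cells at 0 h and 12 h in place of 1 and 2. Partner genes called per comparison were then 2 to 4 in place of 0 or 1. The share of all genes at that fold was not counted. The cause of these shifts was not tested. The BFP-positive library of 0 h, with 285 cells, sets the precision of the sort comparison, and classes there with under 30 cells allow no call. No paired analysis was possible because each group has 1 library and the labels give no shared replicate numbers.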
